A study of Mus musculus with 24 samples.

Results

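The effect of losing phospholipase Cγ2 (PLCγ2) on gene expression in common lymphoid progenitors (CLPs) was read from 6 of the 24 libraries of the series. The members were chosen by their labels alone: 3 CLP libraries of genotype PLCgamma1+/+PLCgamma2-/-, called Plcg2-/- here, and 3 of genotype PLCgamma1+/+PLCgamma2+/+, called wild-type. The whole series holds RNA sequencing of CLPs and of B cell progenitors from 4 genotypes that combine presence and absence of PLCγ1 and PLCγ2, with 3 mice per genotype.

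The donors of both groups were YFP MxCre mice on a mixed 129xC57BL/6 background, of both sexes, with intact Plcg1. Cre is driven in them by the Mx promoter, which type I interferon switches on, and all of them were injected with poly(I-C), an interferon inducer, at 6 to 12 weeks of age, so the wild-type cells went through the same induction. The genotype labels of both groups differ in Plcg2 alone, which is lost from the germline and so in all cells of the donor. On the mixed background other alleles can differ between mice too, and this was not tested. Their bone marrow was moved into lethally irradiated CD45.1+ wild-type mice, and CD45.2+Lin-IL-7R+ cells were sorted 6 to 8 weeks later, so the progenitors developed next to a wild-type stroma. Each library is 1 recipient. How many donors stood behind the 3 recipients of a genotype is not given in the sources used here, and p-values measure the spread between these libraries.

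PLCγ1 and PLCγ2 are enzymes that receptor-linked tyrosine kinases switch on. They split the membrane lipid PIP2 into diacylglycerol, which engages protein kinase C and RasGRP on the way to NF-κB, and IP3, which opens calcium stores and so activates calcineurin and NFAT. PLCγ2 is best known as the isoform behind the B cell receptor. CLPs are the marrow progenitors of B, T, NK and other lymphoid cells, and they depend on IL-7, whose receptor signals through JAK1, JAK3 and STAT5.

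The 6 CLP libraries were not alike in the cells they held, and this was so within both genotypes. Levels are given as normalized CPM, that is read counts scaled to a common library size by TMM. Flt3, the receptor tyrosine kinase that defines early lymphoid progenitors, stood at 735, 25.8 and 59.1 in wild-type CLP libraries 1, 2 and 3 and at 89.99, 419.8 and 79.1 in Plcg2-/- libraries 1, 2 and 3. Ebf1, a transcription factor that commits cells to the B lineage, went the other way, with 99.9, 776 and 528 in the wild-type CLPs and 266, 206 and 360.1 in the Plcg2-/- CLPs. B cell progenitor libraries of the same 6 mice held Flt3 at 28.4 to 80.5 and Ebf1 at 235 to 774. Wild-type library 1 and Plcg2-/- library 2 thus stood apart with high Flt3, Cd27, Dntt, Notch1 and Satb1 and low B cell genes, while for Flt3 and Satb1 the other 4 CLP libraries lay at or near the levels of the B cell progenitors. Kit and Il7r did not follow this split. Kit was highest in Plcg2-/- library 1 (134.9, beside 123.8 and 112.5 in the pair), and Il7r was lower in wild-type library 1 (355) than in wild-type library 2 (433). The summed level of 15 B lineage markers was 1351, 8170 and 5909 in wild-type and 4068, 2557 and 4741 in Plcg2-/- CLPs, beside 3515 to 7741 in the B cell progenitors. Values in this paragraph are on a scale set over all 24 libraries, and those that follow on a scale set over the 12 CLP libraries. The label CLP therefore describes the sort, Lin-IL-7R+, and Flt3, Cd27, Dntt, Notch1 and Satb1 were clearly above the B cell progenitors in 1 library of each genotype. In bulk RNA, fewer cells of a type and less RNA per cell cannot be told apart. All results below rest on these 6 libraries. Values without the high-Flt3 pair, and without the 2 shallowest libraries, wild-type 2 and Plcg2-/- 3, are given for the lists and genes where they turn a direction or differ most.

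**Figure D1:**
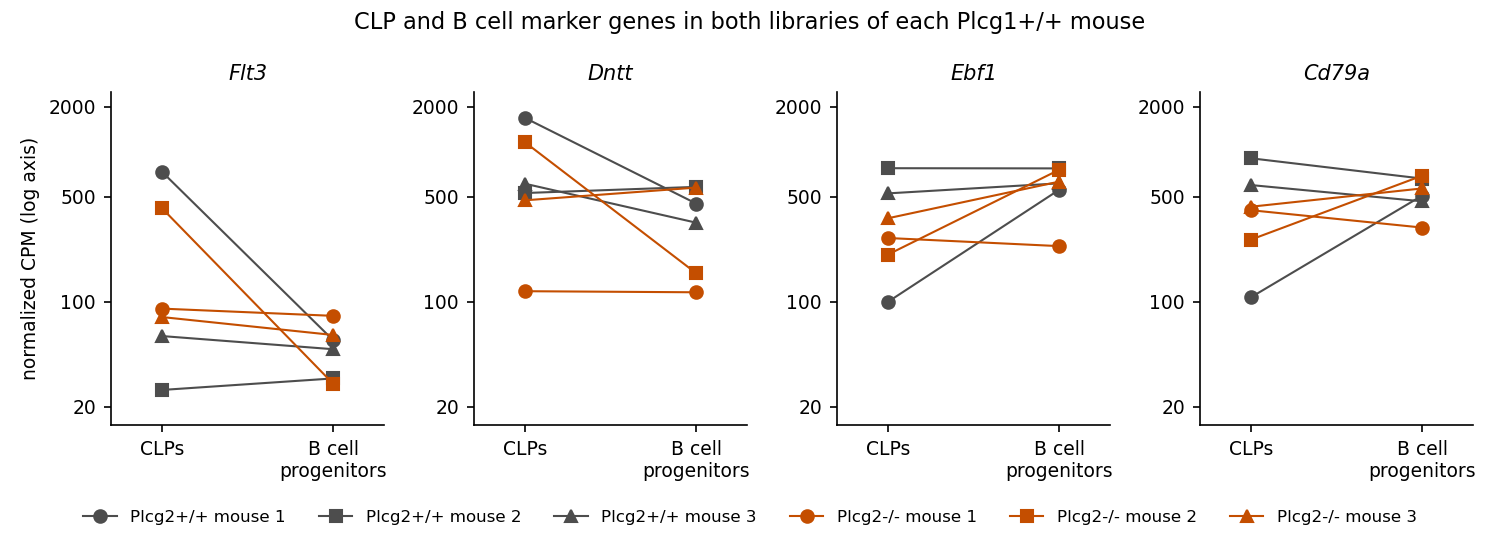
Normalized CPM on a log axis of Flt3, Dntt, Ebf1 and Cd79a in the CLP library (left) and the B cell progenitor library (right) of each of the 6 mice; a line joins both libraries of a mouse, grey is Plcg2+/+ and orange is Plcg2-/-. In wild-type mouse 1 and Plcg2-/- mouse 2 the lines are steep, while in the other 4 mice the levels of Flt3 and Cd79a differ less between both libraries.

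Reads on genes ranged from 4291310 to 33219995 in the wild-type and from 4232345 to 22245995 in the Plcg2-/- libraries, and 3 reads equal 0.090 to 0.724 normalized CPM. In Plcg2-/- library 3, the shallowest, 45.2% of the reads fell on no gene, beside 24.8% to 29.8% in the other 5. Replicates differed by far more than counting error, and no library was a copy of another.

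Plcg2 itself, on chr8:117498275-117635142 (mm10), was lower in every Plcg2-/- library. Its level was 196, 279 and 220.4 in wild-type libraries 1 to 3 and 127, 101 and 137 in the Plcg2-/- libraries, 232 ± 43.1 against 122 ± 18.9 (SD, n = 3 each), and the groups did not overlap. The log2 fold change was -0.93 (SE 0.16), with an unadjusted p of 1.21e-04 and an adjusted p of 0.368 in edgeR's quasi-likelihood test (Benjamini-Hochberg, 15209 genes). About as much remained in the Plcg1-/-Plcg2-/- CLPs, where Plcg2 read 114, 95.1 and 115 beside 202, 226 and 233 in Plcg1-/-Plcg2+/+ CLPs, a log2 difference of -1.03. In B cell progenitors of the same mice it was lower by a log2 change of -1.37 (adjusted p = 0.0187, edgeR's quasi-likelihood test). Without the high-Flt3 pair of libraries the log2 fold change in CLPs was -0.92. The labels thus hold for the direction of Plcg2 in all 6 libraries. Reads over the whole gene are counted, and which exons the null allele lacks is not given in the sources used here. Plcg1, the sister enzyme, stood at 107, 112 and 99.98 in wild-type and 89.6, 96.9 and 93.6 in Plcg2-/- CLPs, a log2 fold change of -0.18 with an unadjusted p of 0.50 in the same fit, and its 95% interval ran from -0.76 to 0.40. None of the 17 tested genes that start within 2 Mb of Plcg2, other than Plcg2 itself, reached an unadjusted p of 0.05.

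No gene passed the test for the whole comparison. Of 15209 genes tested, 0 were called, for which an adjusted p up to 0.05 and a log2 fold change of 0.5 or more were asked, and the lowest adjusted p was 0.251 (edgeR's quasi-likelihood test, Benjamini-Hochberg). At an unadjusted p up to 0.05 there were 596 genes, 3.92% of those tested, with 232 higher (1.53%) and 364 lower (2.39%) in Plcg2-/- CLPs. DESeq2 on the same 12 CLP libraries called 11 genes (0.0723%), 4 higher and 7 lower. Complete separation of the 3 Plcg2-/- from the 3 wild-type libraries was seen upward in 486 genes (3.2%) and downward in 697 (4.58%). The median log2 fold change over all tested genes was 0.01, and the median SE was 0.28, so for a typical gene the 95% interval reached 0.61 to either side. The genes below are therefore described by their values, and "higher" and "lower" give the direction of the difference, not a call.

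The 12 largest differences in each direction were taken among genes with an unadjusted p up to 0.05, no overlap between the groups and a mean of at least 5 CPM in the higher group. Their differences were then set beside those in 6 other CLP libraries, Plcg1-/-Plcg2-/- against Plcg1-/-Plcg2+/+, in which Plcg2 is lost where Plcg1 is lost too. The comparisons share no library. Of the 12 lower genes, Plcg2 among them, 8 had the same sign there and 7 of them an unadjusted p up to 0.05. Of the 12 higher genes, 7 had the same sign and 3 an unadjusted p up to 0.05. Over all tested genes 41.9% had the same sign in both comparisons, and in the second one 4.29% reached an unadjusted p of 0.05 and 4 (0.0263%) were called. Within the first comparison all 24 kept their direction without the high-Flt3 pair and without the 2 shallowest libraries. At an unadjusted p up to 0.05 were 12 higher and 11 lower genes in the former and 7 and 7 in the latter. Choosing genes without overlap largely fixed these directions beforehand, and the counts reuse the libraries that chose the genes. They are no independent check.

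The genes lower in both comparisons were of different kinds. Ccr7, the chemokine receptor that guides lymphocytes to lymph nodes, read 38.97, 53.7 and 72.2 in wild-type and 26.4, 26.7 and 19.99 in Plcg2-/- CLPs. Every Plcg2-/- library lay below every wild-type one, with a log2 fold change of -1.17 (SE 0.27, unadjusted p 0.00115 in edgeR's test). It was -1.62 in the CLPs without Plcg1 and -1.06 in B cell progenitors. Blk, a Src-family kinase of B lineage cells that acts upstream of PLCγ2, read 98.3, 272 and 129.6 in wild-type and 86.5, 85.3 and 82.8 in Plcg2-/- CLPs. Its 3 Plcg2-/- values were almost the same, and the wild-type spread came from library 2. The log2 fold change of Blk was -0.96 (SE 0.34), beside -1.99 without Plcg1 and -1.33 in B cell progenitors. Without the 2 shallowest libraries, wild-type 2 among them, it was -0.41 with an unadjusted p of 0.183 in edgeR's test.

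Dtx1, which encodes the Notch regulator Deltex, read 9.42, 19.1 and 9.28 in wild-type and 5.36, 5.82 and 2.42 in Plcg2-/- CLPs. The log2 fold change was -1.41 (SE 0.52), -2.34 without Plcg1 and -1.16 in B cell progenitors. This became -0.74 without the 2 shallowest libraries, with an unadjusted p of 0.212 in edgeR's test. Ephx1, the microsomal epoxide hydrolase, read 9.78, 14.3 and 13.96 against 5.19, 6.22 and 4.39, a log2 fold change of -1.25 (SE 0.28), and DESeq2 called it with an adjusted p of 0.049. Its log2 difference was -0.93 without Plcg1 and -1.11 in B cell progenitors. Amigo1, a neuronal adhesion molecule, and Fzd9, a Wnt receptor, were lower by log2 changes of -1.02 and -1.26, beside -0.95 and -1.29 without Plcg1. For Amigo1 the change without the 2 shallowest libraries was -0.53 (unadjusted p 0.102 in edgeR's test). All these genes were separated between both genotypes in the first comparison, which the choice of genes asked for.

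**Figure D2:**
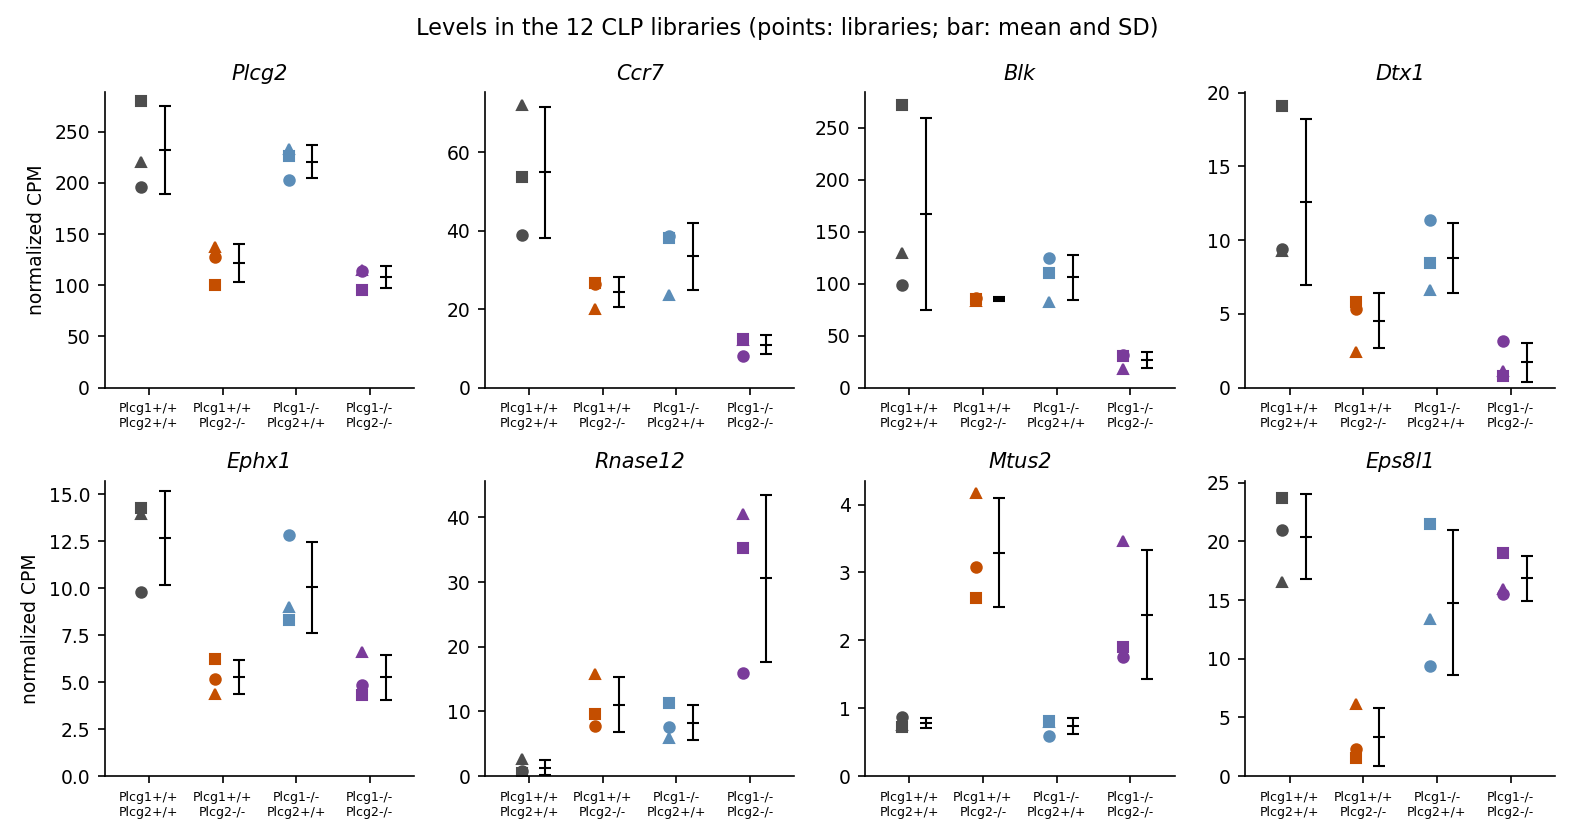
Normalized CPM of 8 genes in the 12 CLP libraries, by genotype; points are libraries (circle, square and triangle are replicates 1, 2 and 3) and the bar to the right gives the mean and SD. Plcg2, Ccr7, Dtx1 and Ephx1 were lower and Rnase12 and Mtus2 higher with Plcg2 lost in either Plcg1 state, while Eps8l1 was low only in the Plcg1+/+Plcg2-/- libraries.

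A pair of further transcripts belongs to those lower in both comparisons but were too scarce for the 5 CPM limit. C130046K22Rik, a transcript without an assigned function, read 3.77, 5.56 and 3.93 in wild-type and 0.798, 0.533 and 1.54 in Plcg2-/- CLPs, a log2 fold change of -2.31 (SE 0.48). Without Plcg1 its log2 difference was -3.29, and in the mean of both comparisons it and Plcg2 were the 2 genes called (adjusted p = 0.036 for C130046K22Rik, edgeR's quasi-likelihood test), an analysis added after the data were seen. Rab30, a small GTPase of the Golgi, read 1.96, 1.93 and 5.46 in wild-type CLPs. In the Plcg2-/- CLPs it read 0.456, 0.445 and 0.439, where the value in library 3 rests on 2 reads. Rab30 read 2.21, 1.44 and 0.594 in Plcg1-/-Plcg2+/+ and 0.714, 0.517 and 0.454 in Plcg1-/-Plcg2-/- CLPs, which overlapped. DESeq2 called C130046K22Rik and Rab30 in the first comparison, with adjusted p of 0.0057 and 0.049.

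On the other side, Rnase12, a member of the secreted ribonuclease family, read 0.724, 0.484 and 2.58 in wild-type and 7.69, 9.56 and 15.8 in Plcg2-/- CLPs. The value of wild-type library 2 rests on 2 reads, below the floor of 3, so the size of the fold is uncertain. Its log2 fold change was 2.88 (SE 0.57) in edgeR's test, with DESeq2's adjusted p at 3.56e-04. It was also higher by 1.88 on the log2 scale without Plcg1 and by 2.76 in B cell progenitors, where it was called (adjusted p = 0.0239, edgeR's quasi-likelihood test). In Plcg1-/-Plcg2+/+ CLPs, where Plcg2 is intact, Rnase12 read 7.57, 11.3 and 5.94, above every wild-type library. Mtus2, a microtubule-associated protein, read 0.869, 0.725 and 0.751 against 3.08, 2.62 and 4.17, with 3 reads in wild-type library 2, a log2 fold change of 2.03 (SE 0.41), with 1.69 without Plcg1 and 2.61 in B cell progenitors. Epor, the erythropoietin receptor, read 1.96, 3.87 and 3.57 against 9.97, 4.71 and 12.1 and was higher by 1.51 and 1.06 on the log2 scale in both comparisons. Synj2, a phosphatase of inositol phospholipids and so of the lipid that PLCγ2 cleaves, read 18.1, 6.04 and 11.98 against 30.5, 33.4 and 21.8, a log2 fold change of 1.22 (SE 0.34), beside 0.75 without Plcg1 and 1.88 in B cell progenitors.

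Other large differences were not matched where Plcg1 was also lost. Eps8l1, an actin regulator, read 21.01, 23.7 and 16.5 in wild-type and 2.34, 1.56 and 6.15 in Plcg2-/- CLPs, a log2 fold change of -2.74 (SE 0.47). Without Plcg1 its log2 difference was 0.19, and the difference between both effects had an unadjusted p of 6.00e-04 that did not pass adjustment. Rnaset2b, a lysosomal ribonuclease, read 0.869, 0.967 and 3.48 against 16.6, 12.4 and 15.2, a log2 fold change of 2.92 (SE 0.47), and -0.31 without Plcg1. Its level in Plcg1-/-Plcg2+/+ CLPs was 10.4, 7.65 and 8.12. Mmp14, a membrane metalloproteinase, was higher by 1.94 on the log2 scale, beside 0.02 without Plcg1. Fcrl6, an Fc receptor-like molecule, and Cdk5rap1, a tRNA-modifying enzyme, were lower by log2 changes of -0.92 and -0.85, beside 1.99 and 0.42 without Plcg1. Rnaset2b and Dynlt1b, a dynein light chain lower by a log2 change of -1.28, have near-identical neighbouring copies, so reads may have been split among the copies and their values are uncertain.

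Rnaset2b, Dynlt1b and Synj2 lie close together on chromosome 17. Of 34 tested genes within 3 Mb of Rnaset2b, 6 had an unadjusted p up to 0.05 (17.6%), 3 higher and 3 lower, beside 3.92% of all tested genes. The 6 include Rnaset2b, Dynlt1b and Synj2, whose selection had asked for such a p, so the 17.6% was partly set by that choice. The others were Arid1b, a chromatin remodelling subunit lower by a log2 change of -0.36, Rsph3a and the pseudogene Tmem181b-ps. This stretch was looked at after its genes had been seen. Since the background was mixed, the strain of origin along chromosome 17 can differ between mice, and it was not tested.

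**Figure D3:**
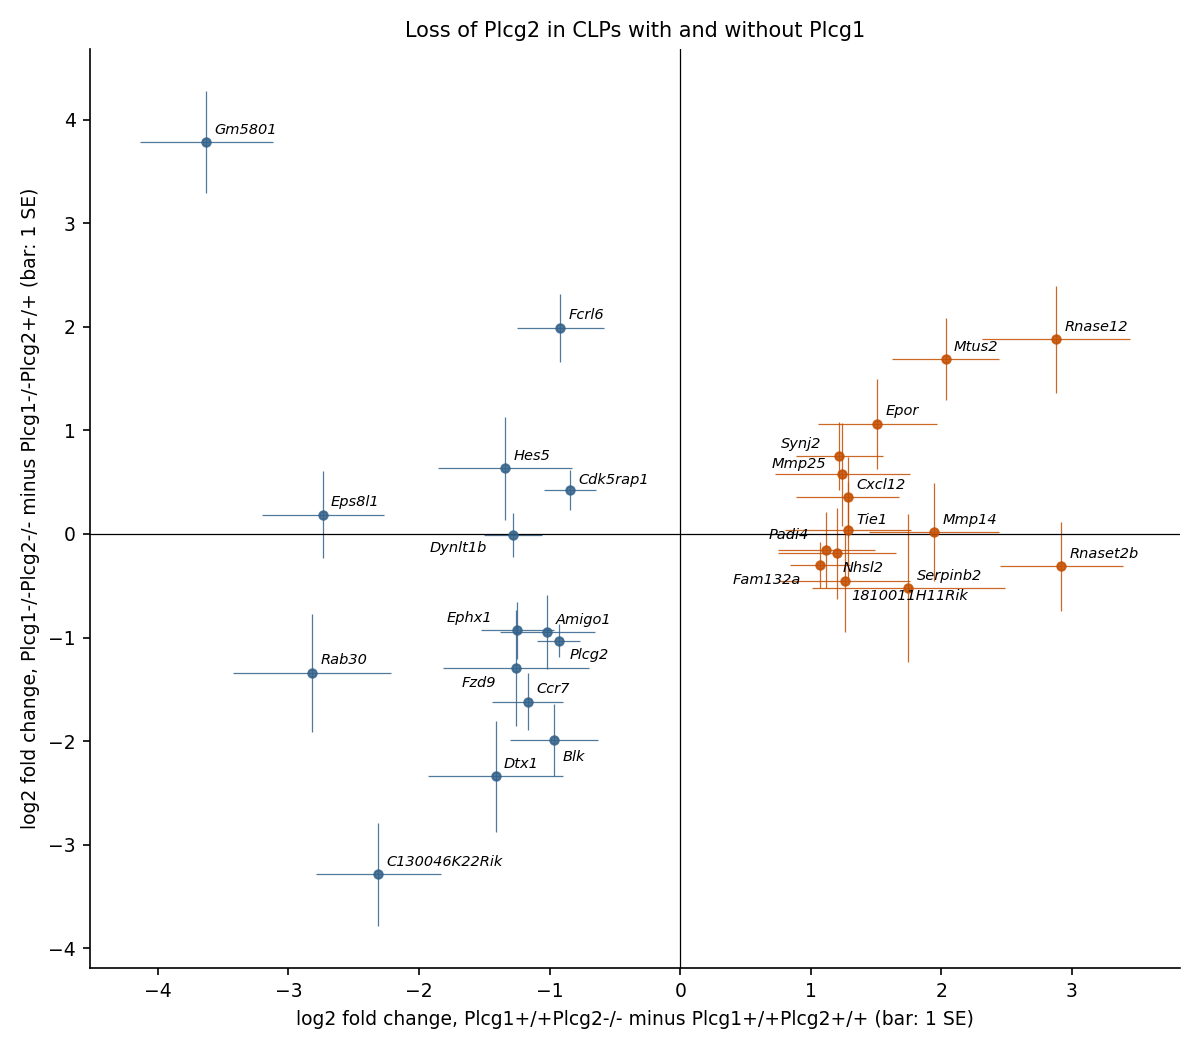
Each point is 1 gene named by the selection rule or called by DESeq2; the x axis gives its log2 fold change with loss of Plcg2 in Plcg1+/+ CLPs and the y axis the same in Plcg1-/- CLPs, with bars of 1 SE. Ccr7, Blk, Dtx1, Ephx1, C130046K22Rik and Plcg2 lie at lower left and Rnase12, Mtus2, Epor and Synj2 at upper right, while Gm5801 and Fcrl6 lie at upper left and Rnaset2b and Mmp14 near 0 on the y axis.

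Hes5 is, like Dtx1, a classical target of Notch, whose DNA-binding partner RBPJ reads the letters TGGGAA. Hes5 read 5.43, 9.43 and 12.7 in wild-type and 3.42, 4.27 and 3.08 in Plcg2-/- CLPs, a log2 fold change of -1.34 (SE 0.51), but 0.63 without Plcg1 and -0.28 in B cell progenitors. Notch1 itself read 691, 189.8 and 205 against 268, 475 and 227 and was highest in the high-Flt3 pair. The 2 promoters are shown because both genes were among the 12 with the largest downward difference and differ in this motif. They are RefSeq sequences of GRCm38.p6 from 250 bases before to 50 after the start site, Hes5 at chr4:154960673-154960972 on the plus strand and Dtx1 at chr5:120711620-120711919 on the minus strand, with capitals marking TGGGAA on either strand.
Hes5: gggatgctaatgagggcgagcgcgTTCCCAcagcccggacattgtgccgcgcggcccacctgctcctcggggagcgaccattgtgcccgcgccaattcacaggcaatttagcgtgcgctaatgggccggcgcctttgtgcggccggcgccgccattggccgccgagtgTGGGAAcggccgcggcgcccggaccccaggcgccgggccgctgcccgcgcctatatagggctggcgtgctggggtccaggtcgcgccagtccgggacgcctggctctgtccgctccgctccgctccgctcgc
Dtx1: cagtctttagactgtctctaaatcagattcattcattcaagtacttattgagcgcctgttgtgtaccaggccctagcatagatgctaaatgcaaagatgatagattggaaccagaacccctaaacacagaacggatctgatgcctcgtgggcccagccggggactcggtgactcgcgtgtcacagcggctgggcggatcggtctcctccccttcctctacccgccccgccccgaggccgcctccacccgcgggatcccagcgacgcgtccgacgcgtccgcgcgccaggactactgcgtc
The Hes5 window held 2 matches, which begin 226 and 82 bases before the start site, and the Dtx1 window held 0. Of 32851 promoter windows of this length, 25.6% held a match, so a match describes the sequence only, and its absence says no more than that these letters are not in the window.

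The genes that encode PLCγ2's own pathway are given with the share of each list at an unadjusted p up to 0.05. Of 16 tested phospholipase C enzymes, 9 were lower and 7 higher, and besides Plcg2 only Plcl2, a catalytically inactive relative, had an unadjusted p up to 0.05. Plcg2 and Plcl2 made up 12.5% of the list, beside 2.39% of all tested genes in that direction. Plcg2, the targeted gene, is in this share by the choice of genotypes. Plcl2 read 102, 148 and 131 in wild-type and 106, 90.4 and 90.5 in Plcg2-/- CLPs, with overlap between the groups and a log2 fold change of -0.41 (-0.25 without the 2 shallowest libraries). Of 27 upstream kinases and adaptors 16 were lower, with a median log2 fold change of -0.06. Blk alone reached an unadjusted p of 0.05 (3.7% of the list, beside 2.39% of all tested genes in that direction). The median was 0.06 and 11 of 27 were lower without the 2 shallowest libraries. Syk, the kinase that couples the pre-B cell receptor to PLCγ2, read 445, 1671 and 878 in wild-type and 842, 533 and 637 in Plcg2-/- CLPs, which overlapped.

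On the diacylglycerol side, 20 of 38 genes were lower, and the median log2 fold change was -0.04. At an unadjusted p up to 0.05, 5.26% of this list were higher and 2.63% lower, beside 1.53% and 2.39% of all tested genes. Relb, the NF-κB subunit of the non-canonical arm, read 28.2, 36.02 and 34.7 against 25.9, 27.8 and 21.8. Its log2 fold change was -0.38 (SE 0.17, unadjusted p 0.043 in edgeR's test), beside -0.60 without Plcg1 and -0.51 in B cell progenitors. Dgkq, a diacylglycerol kinase that removes the second messenger, read 27.4, 21.5 and 25.4 against 36.1, 28.01 and 37.4, a log2 fold change of 0.44, and -0.01 without Plcg1. Prkd1 had an unadjusted p of 0.0232 but held only 1 read in wild-type libraries 1 and 2 and 3 reads in Plcg2-/- library 1. Relb and Dgkq had, without the 2 shallowest libraries, log2 fold changes of -0.23 and 0.28, with unadjusted p of 0.280 and 0.183 in edgeR's test. The NF-κB targets Nfkbia and Tnfaip3, which feed back on the pathway, read 417, 505 and 459.6 against 255, 516 and 337 for Nfkbia and 668, 365 and 487 against 174, 898 and 300.4 for Tnfaip3, and overlapped. On the IP3 side, calcineurin and the NFAT genes among them, 16 of 28 genes were lower with a median of -0.08. Of these 28, 0 reached an unadjusted p of 0.05, beside 3.92% of all tested genes.

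**Figure D4:**
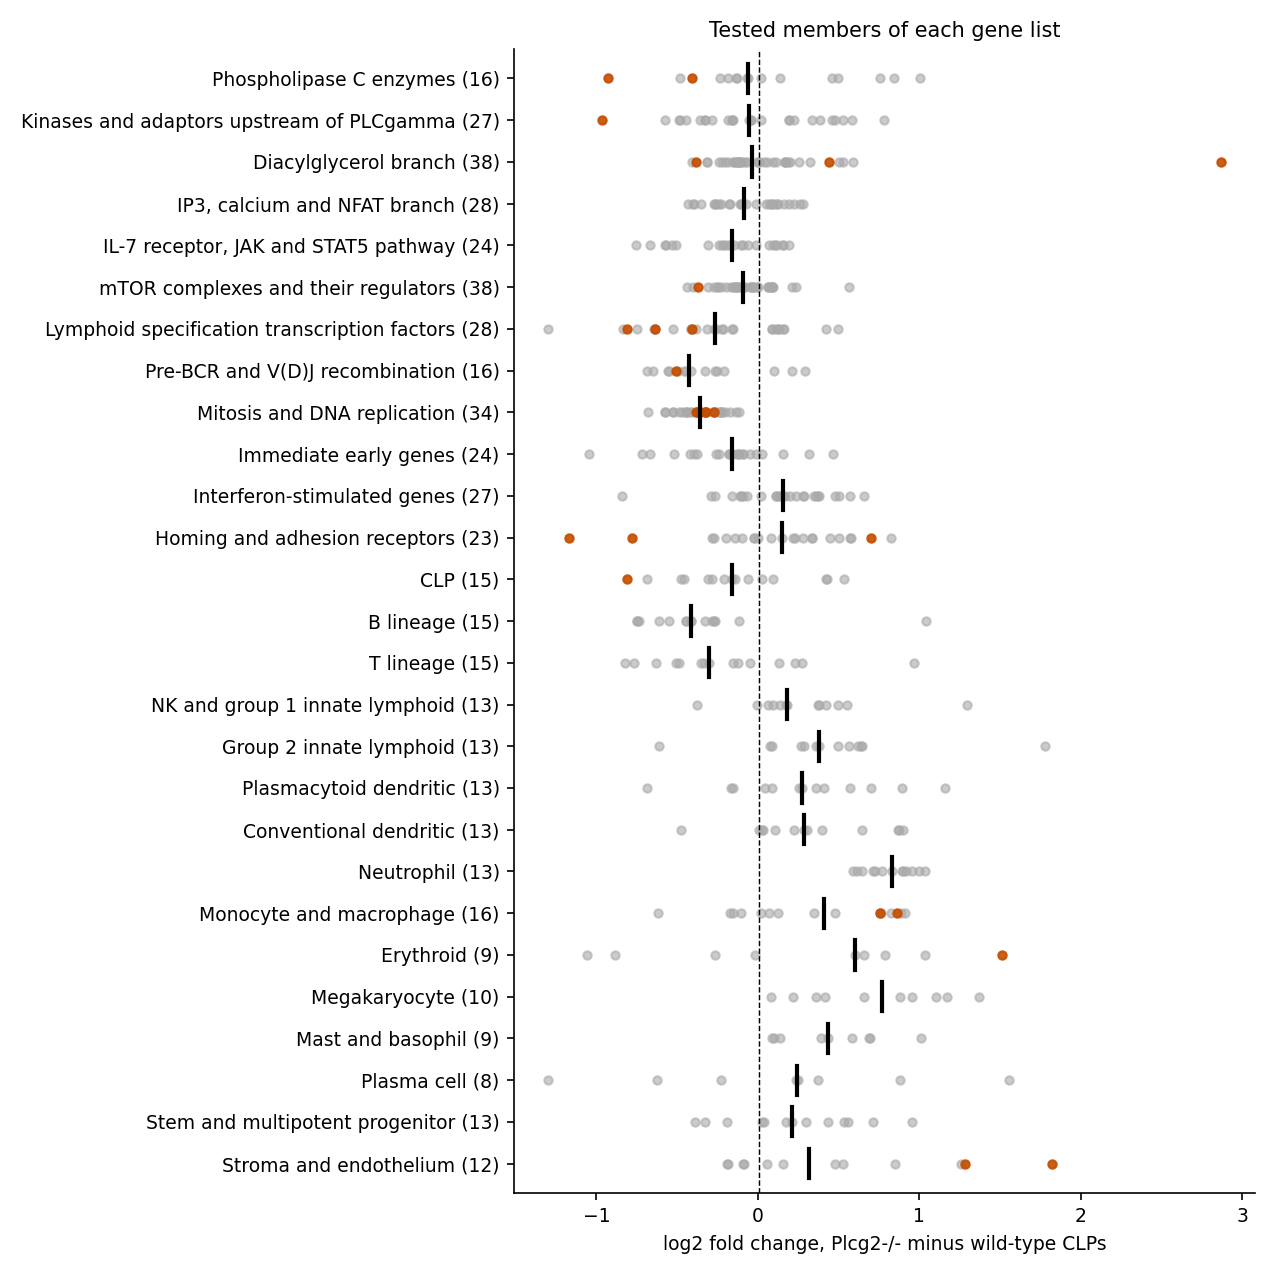
Log2 fold change, Plcg2-/- minus wild-type CLPs, of the tested members of 27 gene lists, with the number of members in brackets; orange points have an unadjusted p up to 0.05, the black bar is the list's median and the dashed line the median of all tested genes. All 34 genes of mitosis and DNA replication lie left of 0 and all 13 neutrophil genes right of it, while the diacylglycerol and IP3 lists are centred near 0.

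The genes of IL-7 signalling leaned lower, 17 of 24 with a median log2 fold change of -0.16, beside 48.8% of all tested genes lower, and 0 had an unadjusted p up to 0.05. Il7r, which encodes the receptor's specific chain and was part of the sort, read 355, 429 and 238 against 145, 496 and 181. The log2 fold change was -0.31 (SE 0.55), and the groups overlapped. It was -1.04 without the high-Flt3 pair and 0.12 without the 2 shallowest libraries. Pim1 and Ccnd3, a kinase and a cyclin induced through STAT5, had log2 fold changes of -0.57 and -0.51, with unadjusted p of 0.0879 and 0.0823 in edgeR's test. They were -0.88 and -0.79 without the high-Flt3 pair and -0.36 and -0.16 without the 2 shallowest libraries. Of 38 mTOR genes 27 were lower with a median of -0.09. Akt1, the kinase upstream of mTOR complex 1, alone reached an unadjusted p of 0.05 (2.63% of the list, beside 2.39% of all tested genes in that direction). Akt1 read 301, 476 and 343 against 319, 294 and 253, which overlapped, a log2 fold change of -0.37 that was -0.07 without the 2 shallowest libraries. Rps6, the ribosomal protein that mTOR's kinase branch phosphorylates, read 740.3, 618 and 669 against 628, 645 and 705.

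All 34 genes of mitosis and DNA replication were lower in Plcg2-/- CLPs, with a median log2 fold change of -0.36, and 7 had an unadjusted p up to 0.05 (20.6% of the list, beside 2.39% of all tested genes in that direction). Those 7 were Mcm2, Mcm3, Mcm4, Mcm5 and Mcm7 of the replicative helicase, Rrm1 of ribonucleotide reductase and Cdc45, which activates the helicase. Mcm2 read 412, 459 and 402 in wild-type and 329, 335 and 318 in Plcg2-/- CLPs, without overlap, a log2 fold change of -0.37 (SE 0.10). Mcm5 read 459.96, 558 and 453 against 405, 395 and 347, also without overlap, a log2 fold change of -0.36 (SE 0.12). Mki67 and Top2a, abundant markers of cycling cells, had log2 fold changes of -0.27 and -0.32 and overlapped.

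The difference of this list moved with other features of the libraries. Its summed level was 8041, 13573 and 11176 in wild-type and 8522, 8234 and 8908 in Plcg2-/- CLPs. Wild-type library 1, with few B lineage transcripts, was thus the lowest of all 6. The sum was 8727, 7829 and 9734 in Plcg1-/-Plcg2+/+ CLPs, where Plcg2 is intact, and 8163, 8876 and 9710 in Plcg1-/-Plcg2-/- CLPs. Only wild-type libraries 2 and 3 stood above all other CLP libraries. Without the high-Flt3 pair 34 of 34 were lower with a median of -0.47 and 26 at an unadjusted p up to 0.05. Of all 16185 genes tested without that pair, 1018 were lower at that level. Without the 2 shallowest libraries 33 of 34 were lower with a median of -0.21, with Mcm5 at -0.19. There 2 of the list were at that level, beside 89 of all 15536 genes tested. Between Plcg2-/- library 2 and wild-type library 1, the pair itself, 14 of 34 were lower and the median log2 ratio was 0.17, which has no test. In CLPs without Plcg1, loss of Plcg2 left 17 of 34 lower with a median of 0.01, while in B cell progenitors 33 of 34 were lower with a median of -0.18. The part of cell composition in this shift was not tested apart from these values.

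**Figure D5:**
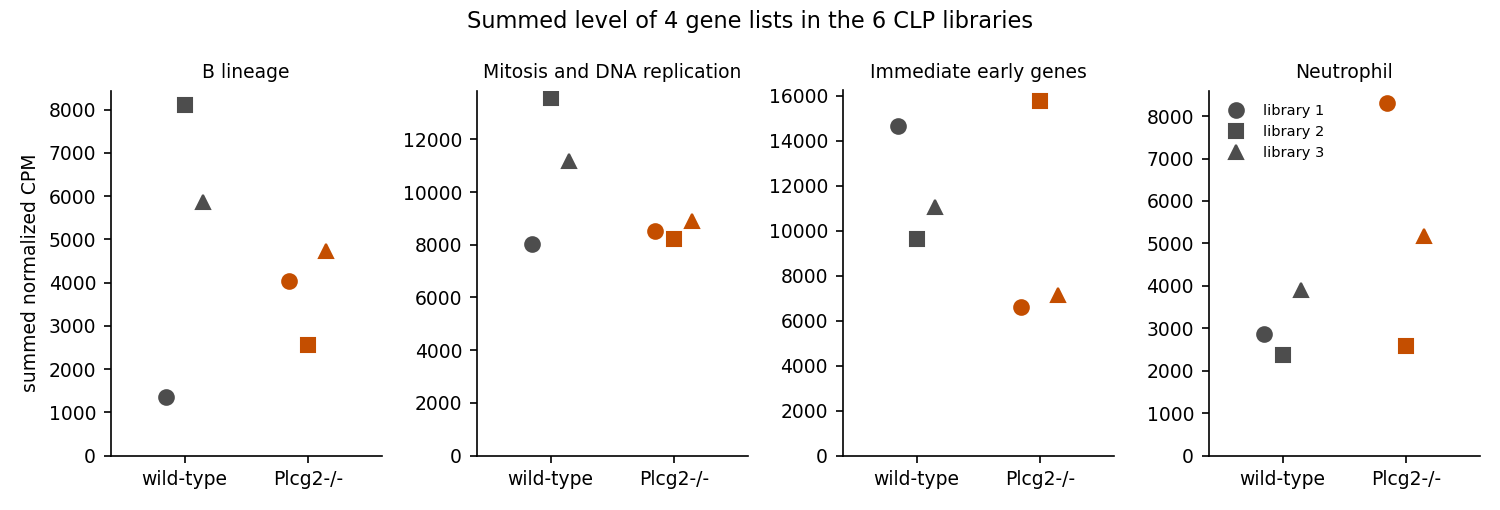
Summed normalized CPM of 4 gene lists in the 3 wild-type (grey) and 3 Plcg2-/- (orange) CLP libraries; circle, square and triangle are libraries 1, 2 and 3. The B lineage sum spans 1352 to 8106 among the wild-type libraries alone, the mitosis sum is highest in wild-type libraries 2 and 3, the immediate early sum is highest in wild-type library 1 and Plcg2-/- library 2, and the neutrophil sum is highest in Plcg2-/- libraries 1 and 3.

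Of 28 transcription factors of lymphoid specification, 19 were lower with a median log2 fold change of -0.27, and 3 had an unadjusted p up to 0.05 (10.7% of the list, beside 2.39% of all tested genes in that direction). The median was -0.47 without the high-Flt3 pair, with 7 at that level, and -0.14 without the 2 shallowest libraries, with 0. In these settings 1018 of 16185 and 89 of 15536 tested genes were lower at that level. Tcf12, which encodes the E protein HEB, read 169, 253 and 204 in wild-type and 137, 143 and 122 in Plcg2-/- CLPs, without overlap, a log2 fold change of -0.64 (SE 0.18, unadjusted p 0.00378 in edgeR's test). In CLPs without Plcg1 its log2 difference was 0.12, and in B cell progenitors -0.52. Ikzf1, the gene of Ikaros, read 807, 916 and 723 against 624, 709 and 512, a log2 fold change of -0.41, beside -0.28 without Plcg1 and -0.44 in B cell progenitors. Sox4, a survival factor of B cell precursors, read 329.5, 761 and 383 against 256, 328 and 253, a log2 fold change of -0.81, and 0.24 without Plcg1. These 3 genes were separated between the genotypes. Their log2 fold changes were -0.41, -0.20 and -0.29 without the 2 shallowest libraries. Tcf3, the gene of E2A, and Ebf1 and Runx1, which with it set up the B cell program, had log2 fold changes of -0.64, -0.75 and -0.21 and overlapped.

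Irf4, a factor induced by pre-B cell receptor signalling, read 66.7, 603 and 448 against 167, 99.2 and 187, a log2 fold change of -1.30 with an unadjusted p of 0.0554. Genes of the pre-B cell receptor and V(D)J recombination were lower in 13 of 16 cases (median -0.43), and 14 of 15 B lineage markers were lower (median -0.42), with only Xrcc6, a DNA repair subunit, at an unadjusted p under 0.05. These leanings depended on which libraries were compared. Without the high-Flt3 pair the medians were -0.65 and -0.63, and without the 2 shallowest libraries -0.13 and -0.08, with 12 of 16 and 10 of 15 lower. Without wild-type library 2 alone 7 of 15 B lineage markers were lower. Between Plcg2-/- library 2 and wild-type library 1, which has no test, 13 of 16 and 15 of 15 were higher, with median log2 ratios of 0.51 and 0.88. With the summed B lineage level as a covariate 7 of 16 and 5 of 15 were lower. Cd79a, the receptor's signalling chain, read 107, 897 and 594 against 404, 259 and 429, and Rag1, the recombinase, read 178, 745 and 517 against 446, 298 and 498. Wild-type library 1 was the lowest of the 6 for both and wild-type library 2 the highest. In CLPs without Plcg1 these lists leaned the other way with loss of Plcg2, with 14 of 16 and 11 of 15 higher and medians of 0.51 and 0.61.

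Immediate early genes were highest in the high-Flt3 pair. Of 24 such genes, which cells switch on within minutes of a stimulus or of tissue dissociation, 20 were lower with a median of -0.16 and 0 at an unadjusted p of 0.05. Jun read 2389, 1403 and 1401 in wild-type and 989.7, 2415 and 928 in Plcg2-/- CLPs, and Fos read 2177, 769.6 and 1264 against 937, 1901 and 887. Wild-type library 1 and Plcg2-/- library 2 held the most of both. Without the pair 23 of 24 were lower with a median of -0.56. Of 27 interferon-stimulated genes 19 were higher with a median of 0.15, and 0 had an unadjusted p up to 0.05. Only 12 of 27 were higher without the 2 shallowest libraries, with a median of -0.03.

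Homing and adhesion receptors showed no common direction, 14 of 23 higher and 9 lower. Their median of 0.15 was 0.42 without the high-Flt3 pair and 0.00 without the 2 shallowest libraries. Besides Ccr7, Cxcr4, the receptor that holds progenitors in the marrow, was lower with 264, 817 and 676 against 288, 349 and 385. It overlapped in wild-type library 1 and had a log2 fold change of -0.78, beside -0.28 without Plcg1. S1pr2, a sphingosine 1-phosphate receptor, was higher with 9.05, 6.04 and 7.24 against 13.5, 9.65 and 13.6, a log2 fold change of 0.70 and -0.02 without Plcg1. Itga4 and Selplg, adhesion molecules of arrest and rolling, differed by log2 changes of -0.20 and 0.00 and overlapped.

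Transcripts of myeloid cells leaned higher in Plcg2-/- CLP libraries. All 13 tested neutrophil genes were higher with a median log2 fold change of 0.83, and 0 had an unadjusted p up to 0.05. Elane, a granule protease, read 274, 246 and 391 in wild-type and 1037, 273 and 557 in Plcg2-/- CLPs, and Mpo, myeloperoxidase, read 1499, 1227 and 1712 against 4085, 1345 and 1849. The excess lay in Plcg2-/- libraries 1 and 3, while library 2 was at the wild-type level. The summed neutrophil level ran from 2374 to 3893 in wild-type and from 2595 to 8306 in Plcg2-/- CLPs. With Plcg2 intact, Plcg1-/-Plcg2+/+ libraries 1, 2 and 3 held 9235, 3222 and 6228, so this excess was not particular to loss of Plcg2. Plcg1-/-Plcg2-/- libraries 1, 2 and 3 held 8445, 3735 and 6396. The neutrophil median was 0.52 without the 2 shallowest libraries, with 13 of 13 higher. Monocyte and macrophage genes were higher in 12 of 16 cases, beside 51.2% of all tested genes, with Vcam1 and Mrc1 at an unadjusted p under 0.05 (12.5% of the list, beside 1.53% of all tested genes in that direction). They were higher in 9 of 16 without the high-Flt3 pair. Megakaryocyte genes were higher in 10 of 10 and mast cell and basophil genes in 9 of 9. Their medians were 0.77 and 0.43, beside 0.01 over all tested genes. Without the 2 shallowest libraries 8 of 10 and 7 of 9 were higher with medians of 0.41 and 0.37, and without the high-Flt3 pair the mast cell and basophil median was 0.98.

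Other lineages leaned the same way more weakly. Conventional dendritic cell genes were higher in 12 of 13 cases and group 2 innate lymphoid genes in 12 of 13, with medians of 0.29 and 0.38. NK cell genes were higher in 11 of 13, plasmacytoid dendritic cell genes in 10 of 13, stem and multipotent progenitor genes in 10 of 13 and plasma cell genes in 5 of 8, while T lineage genes were lower in 11 of 15 (median -0.30). Most of these leanings changed with the libraries compared. Without the 2 shallowest libraries plasmacytoid dendritic cell genes turned to 1 of 13 higher (median -0.26), conventional dendritic cell genes to 6 of 13 (median -0.02) and NK cell genes to 7 of 13 (median 0.03). Without the high-Flt3 pair the NK median rose from 0.18 to 0.99, that of plasmacytoid dendritic cell genes from 0.28 to 0.91 and that of stem and multipotent progenitor genes from 0.21 to 0.58. T lineage genes turned to 10 of 15 higher (median 0.28) without that pair and were at a median of -0.47 without the 2 shallowest libraries. Group 2 innate lymphoid genes were higher in 9 of 13 without the pair (median 0.22). Erythroid genes were higher in 5 of 9, and the 6 adult haemoglobin genes were listed at 0 in all 6 libraries. The 15 CLP markers were lower in 10 cases with a median of -0.16, but 8 of 15 were higher with a median of 0.19 without the high-Flt3 pair. Of these markers Sox4 alone had an unadjusted p under 0.05, and of Xist and 4 Y-linked genes, which read the sex of the cells, 0 reached it. The largest log2 fold change among these 5 was 1.29. Xist had log2 fold changes of 1.40 without the high-Flt3 pair and -0.25 without the 2 shallowest libraries. The sum of the 5 joins genes of female and of male cells, so it does not read the sex. This summed level was 288 to 592 in wild-type and 442 to 976 in Plcg2-/- CLPs. It was 1359 to 2261 in Plcg1-/-Plcg2+/+ and 1386 to 2050 in Plcg1-/-Plcg2-/- CLPs. Between those, 5 of 5 were lower with loss of Plcg2, with a median of -1.55 and 3 at an unadjusted p up to 0.05. Of all 15209 genes tested, 300 were lower at that level there. The sex of the donors was not tested. Stromal and endothelial genes were higher in 8 of 12. Among them Cxcl12, the ligand of Cxcr4, read 7.53, 13.8 and 16.96 against 51.6, 20.9 and 20.2, and Kitl, the ligand of Kit, read 0.652, 0.967 and 1.02 against 3.19, 1.96 and 4.39. Several of the 12 genes with the largest upward difference, such as Epor, Cxcl12, Mmp14, Mmp25, Padi4 and the endothelial receptor Tie1, are known from such other cells. The sort was for CD45.2+Lin- cells from CD45.1+ hosts, and how completely it removed other cells was not tested. The part of admixed cells in these differences was not tested. In CLPs without Plcg1, 7 of 13 neutrophil genes, 4 of 10 megakaryocyte genes and 7 of 16 monocyte genes were higher with loss of Plcg2.

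In B cell progenitors of the same mice, 7 of 15001 genes were called (0.0467%), with Rnase12, Mmp14, Synj2, Rnaset2b and Cd36, a fatty acid transporter, higher and Plcg2 and Eps8l1 lower. All but Cd36 were among the 24 genes selected in CLPs. All 12 higher and all 12 lower genes of the CLPs had the same sign there, 4 and 7 of them at an unadjusted p up to 0.05. Of 14173 genes tested in both populations 71.6% had the same sign, and in B cell progenitors 1.62% were higher and 1.08% lower at an unadjusted p up to 0.05. The libraries are separate, but the mice are the same, so this is a second sort from each recipient and not a second set of animals. A test of the difference between both populations called 0 of 17212 genes (edgeR's quasi-likelihood test on 24 libraries), with 155 at an unadjusted p up to 0.05.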

How the data were processed

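Poly(A) RNA of sorted CLPs and B cell progenitors had been sequenced by the authors, aligned to mm10 with STAR 2.5.0a per the submitters' processing notes, and deposited as raw read counts per gene symbol for 24421 genes, without normalization. The counting program and its strand setting are not given in the sources used here, and the library kit does not mark strand, so overlapping antisense genes cannot be told apart. Reads on no gene (24.8% to 45.2% in the 6 libraries) and ambiguous reads (1.06% to 1.39%) were left out.

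Groups came from the genotype and population labels. From the deposited counts, 1 fit was made with edgeR 4.0.16 (R 4.3.3; filterByExpr, TMM, glmQLFit, glmQLFTest, Benjamini-Hochberg) of 12 CLP libraries of 4 genotypes without covariates, after a test on simulated data. Calls needed an adjusted p up to 0.05 and a log2 fold change of 0.5 or more in either direction. SE and 95% intervals were derived from the F statistic and cover the spread between libraries, and levels of 3 reads cover counting error alone. Positions are those of RefSeq GRCm38.p6. Figures were drawn with matplotlib 3.10.9.

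Named were Plcg2 and Plcg1, the 12 largest differences in each direction under the limits given above, genes called by DESeq2 1.42.0, in each list the members at an unadjusted p up to 0.05 and up to 4 abundant ones, 6 transcription factors and receptors (Runx1, Tcf3, Ebf1, Tcf12, Notch1, Il7r), and genes within 2 Mb of Plcg2. Rsph3a, Tmem181b-ps, Arid1b and Cd36 were named after their values were seen. The comparison and its gene lists were chosen with earlier results of these data known. Alternatives were other size factors, no filter, DESeq2, fewer libraries, a replicate block, thinning and each library left out. Without the high-Flt3 pair, without the 2 shallowest libraries, the B lineage sum as a covariate and the mean of both Plcg2 comparisons were added after the data were seen. Some genes are not reported here.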

Additional observations from a re-analysis of the deposited data

Results flagged for a closer look

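The effect of losing Plcg2 differed between CLPs with and without Plcg1 for 3 genes by a test of the difference itself (edgeR's quasi-likelihood test of the interaction over 15209 genes, Benjamini-Hochberg adjustment). Gm5801 read 2.97, 4.35 and 2.73 in wild-type, 0.171, 0.356 and 0.22 in Plcg2-/-, 0.298, 0.337 and 0.099 in Plcg1-/-Plcg2+/+ and 2.66, 4.39 and 3.96 in Plcg1-/-Plcg2-/- CLPs. Its effects of -3.63 and 3.78 on the log2 scale differed by 7.41 (adjusted p = 0.00548 in edgeR). Both rest on few reads, with 3, 8 and 1 in the Plcg2-/- and 5, 7 and 1 in the Plcg1-/-Plcg2+/+ libraries, so their sizes are uncertain. It is a predicted gene whose reads may be shared with near-identical copies. BC002163 had effects of -0.30 and 3.02, a difference of 3.32 (adjusted p = 0.00851 in edgeR), and was low, at 0.693 to 0.954 CPM, in the 3 Plcg1-/-Plcg2+/+ libraries alone. Serinc3, which encodes a membrane protein of the serine incorporator family on chromosome 2, had effects of 0.49 and -1.91, a difference of -2.40 (adjusted p = 0.00851 in edgeR), and was low, at 261 to 429 CPM, in the 3 Plcg1-/-Plcg2-/- libraries.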

How the results depend on the processing

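With 3 libraries per group, the median gene's 95% interval reached 0.61 (log2) to either side. Smaller differences were thus not detectable for such a gene even without adjustment. Larger ones could miss a call too, as did Plcg2 at -0.93 with an adjusted p of 0.368 in edgeR's test. Against 0 calls in edgeR, DESeq2 on the 12 libraries called 11, DESeq2 with a normal prior on 6 libraries called 4, and the mean of both Plcg2 comparisons called 2. Leaving out each library in turn gave 0 to 1 calls. The 1 was Rnaset2b without wild-type library 3. Against 596 genes at an unadjusted p up to 0.05, there were 367 with the DESeq2 prior, 295 with edgeR on 6 libraries, 1311 with the replicate block, 1746 without the high-Flt3 pair, 184 without the 2 shallowest libraries and 971 with the B lineage covariate. Leaving out 1 library gave 208 (without wild-type 2) to 2091 (without wild-type 1), with 989 without Plcg2-/- 2 and 367 without Plcg2-/- 3. Plcg2's log2 fold change passed adjustment with DESeq2 (-0.92) and in the mean of both comparisons (-0.98), and ran from -1.07 to -0.77 with 1 library left out. For loss of Plcg2 without Plcg1, the 4 calls became 96 with DESeq2 and 17 with the block. Between wild-type and Plcg2-/- CLPs, same-numbered libraries' deviations correlated at -0.03, -0.20 and 0.31, and wild-type 1 and Plcg2-/- 2 at 0.47. The Plcg1-/- libraries were not part of this. The summed mast cell and basophil level was 5294, 10114.5 and 9385 in library 2 of Plcg2-/-, Plcg1-/-Plcg2+/+ and Plcg1-/-Plcg2-/- CLPs. It was 5283 in wild-type 1 and 499.5 to 1874 in the remaining CLP libraries. Whether replicate numbers mark a batch was not tested. The 55 other genes checked include those chosen for no overlap, whose direction was largely set when libraries were left out. Of the 55, 50 kept their direction in all of the 17 alternatives that gave a value. Those that reversed were Notch1 (from -0.56 to 0.69 with 1 library left out, 0.05 without Plcg2-/- 3 and 0.32 without the high-Flt3 pair), Il7r (0.12 without the shallowest libraries) and, in the mean of both comparisons, Plcg1 (0.10), Fcrl6 (0.54) and Gm5801 (0.078). Of 34 mitosis genes, 33 to 34 were lower in every alternative, while 10 to 23 of 24 immediate early genes were (11 without wild-type 1, 10 without Plcg2-/- 1, 13 without Plcg2-/- 3) and 5 to 14 of 15 B lineage genes (7 without wild-type 2, 5 with the B lineage covariate). Neutrophil genes were higher in 12 to 13 of 13. The causes were not tested.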
